A study of Drosophila melanogaster with 12 samples.

Results

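Cytochrome P450 genes of the Drosophila melanogaster larval fat body were described across a fat body RNAi genotype and a high-sugar diet. Members were the rows of the deposited gene table whose symbol starts with Cyp and a digit, leaving out Cyp18a1. This pattern took 73 of 10047 genes. Cyp1 is cyclophilin 1 by the table's own description and no P450, so 72 P450 genes were kept, 3 of them named as pseudogenes. By family number, 36 belong to the CYP3 clan, 25 to the CYP4 clan, 9 to the mitochondrial clan and 2 to the CYP2 clan. All 72 passed the filter on low values, and 8 had a mean signal under 10. A further 12 Cyp symbols of the current reference were not analysed here.

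Cytochrome P450s are haem enzymes that insert an oxygen atom into small molecules, using electrons passed on by a reductase. Microsomal P450s of the CYP3 and CYP4 clans include the insect enzymes best known for breaking down plant toxins and insecticides, and CYP4 enzymes are also known for fatty acid and hydrocarbon oxidation. Members of the CYP2 and mitochondrial clans include the enzymes that make the moulting hormone ecdysone, and the fat body is, with midgut and Malpighian tubules, a main site of detoxification in flies.

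The study measured fat body RNA of female larvae of the third instar at the wandering stage, by sequencing of ribosome-depleted libraries. Males of the control stock VDRC 60000, or of stock VDRC 37058 with UAS-EcR RNAi, were crossed to females carrying UAS-Dcr2 on the X chromosome and the driver r4-GAL4. All 4 groups therefore carry Dcr2 and the fat body driver. The sample titles name the control vw1118. Larvae ate 0.15 M or 0.5 M sucrose, and each of the 4 groups has 3 libraries. EcR encodes the ecdysone receptor, and the study asked how its RNAi and the diet relate to fat body gene expression. The crosses used different VDRC stocks, so the RNAi transgene and any other difference between these stocks cannot be told apart.

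Values are the authors' normalised signal per gene, with no depth in reads. Nothing in the labels ties a library to its own cross or vial, so every p-value reflects the spread among these 12 libraries, which may be technical. In such bulk samples, fewer cells of a type and less RNA per cell cannot be told apart. EcR itself had a signal of 1380.0 ± 173 in controls and 1132 ± 106 in libraries labelled EcR RNAi on 0.15 M sucrose, and of 1454 ± 64.2 and 1414 ± 328 on 0.5 M (SD, n = 3 each). The log2 differences were -0.28 and -0.06 (limma adjusted p = 0.386 and 0.847), so a lower level of the targeted mRNA was not called on either diet. The label names below are used as given. The library control 0.5 M replicate 1 differed from the rest: its signal summed to 15045575, where all others summed to 8864826 to 10966639. Its median signal, 103.5, lay within the 103.4 to 111.4 of the others. Its 10 highest genes held 47.8% of the sum, against 32.2% to 42.9% in the others. Of the 72 P450 genes, 47 (65.3%) were highest in that library among the 3 of its group, against 42.5% of all genes. The summed P450 signal was 73471 there, 39420 in the lowest library of its group and 30234 to 39760 in the other 3 groups. The 8 fat body markers measured, among them the larval serum proteins and Fbp1, summed to 1907640 to 4191120 per library.

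Levels of different P450 genes were compared as signal per kb of exon, with gene lengths from the current reference annotation. The ranks given here and below assume a signal not already divided by gene length. Whether that holds is not known, since the normalisation is not given. On this per-length scale Cyp6g1, whose overexpression gives resistance to DDT and imidacloprid, had the highest level in controls on 0.15 M sucrose at 4723 per kb and in libraries labelled EcR RNAi on that diet at 2279 per kb. Cyp4d1 ranked 1 in controls on 0.5 M at 6084 per kb, and Cyp309a1 ranked 1 in libraries labelled EcR RNAi on 0.5 M at 2483 per kb. The top of the order thus differed between groups, while Cyp309a1 stayed among the first 3 in each. In Cyp309a1 the groups overlapped in all 4 comparisons of 2 groups, with signal means between 4540 and 5757. Other members lay far lower. Cyp303a1, known for its role in sensory bristles, had mean signals of 5.81 to 7.92, and Cyp6t3, known for ecdysone synthesis in the prothoracic gland, of 16.6 to 21.4. Cyp4g1, the oenocyte enzyme of cuticular hydrocarbon synthesis, had mean signals of 104 to 211 and was called in no comparison.

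Cyp4e3 (FBgn0015035), a CYP4 member linked in the fly's Malpighian tubules to permethrin tolerance, was the P450 gene with the largest difference between diets. On 0.15 M sucrose its signal was 35.0, 25.6 and 29.6 in the 3 controls and 33.5, 47.9 and 46.2 with the EcR RNAi label. On 0.5 M sucrose it was 1092, 555 and 573 in controls and 3718, 1996 and 1866 with the EcR RNAi label. All 6 high-sugar libraries lay above all 6 on 0.15 M, and on 0.5 M the labelled libraries lay above the controls without overlap. The diet difference was 4.51 ± 0.29 (log2, SE) in controls and 5.80 ± 0.29 with the label (limma, Benjamini-Hochberg adjusted p = 6e-06 and 3.98e-07). On the scale of signal + 1 these are 22.8-fold and 55.8-fold. The genotype difference was 1.77 ± 0.29 on 0.5 M (adjusted p = 0.00077) and 0.48 ± 0.29 on 0.15 M (adjusted p = 0.395), where the groups overlapped. The diet differences themselves differed by 1.29 ± 0.42, which did not pass the threshold (limma adjusted p = 0.0985, 95% interval 0.39 to 2.19). By signal per kb, Cyp4e3 moved from rank 44 of the 72 in controls on 0.15 M to rank 12 in controls on 0.5 M, and from rank 49 to rank 4 with the label. The related Cyp4e2 and Cyp4e1 did not pass the test between diets in either genotype, with log2 diet differences from -0.33 to 0.47. Cyp4e1 had low group means of 3.58 to 7.25. For Cyp4e2 in labelled libraries, the limma adjusted p was as low as 0.0341 in the alternative fits.

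Cyp309a2 (FBgn0041337), of the CYP3 clan, had the largest difference between genotypes in the family. On 0.15 M sucrose its signal was 3.59, 10.9 and 6.14 in controls and 152, 127 and 192 with the EcR RNAi label. On 0.5 M it was 10.3, 2.19 and 8.01 in controls and 277, 491 and 538 with the label. Controls stayed under 11 on both diets, and every labelled library lay above 100. On the log2 scale the genotype difference was 4.41 ± 0.46 (SE) at the lower sugar and 5.93 ± 0.46 at the higher (limma adjusted p = 1.83e-05 and 1.03e-06). With control signals this low, its size depended on the fit. Over 22 alternative fits it ran from 3.31 to 4.76 on 0.15 M and from 4.7 to 6.29 on 0.5 M. Cyp4d14 ran from 3.71 to 4.09 on 0.15 M, so Cyp309a2 was not the largest there in every fit. Between diets, Cyp309a2 was higher on 0.5 M among labelled libraries by 1.43 ± 0.46 (limma adjusted p = 0.0374). This call was lost in 9 of 22 alternative fits, with an adjusted p of up to 0.119. In controls the diet difference was -0.09 ± 0.46 (adjusted p = 0.951), and the difference of the diet differences was 1.52 ± 0.65 (adjusted p = 0.194). By signal per kb Cyp309a2 held rank 63 and 62 in the control groups, and rank 30 and 19 with the label. Its neighbour on the chromosome, Cyp309a1, is the adjacent gene and had genotype differences of -0.11 ± 0.23 and -0.16 ± 0.23 (limma adjusted p = 0.849 and 0.686).

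**Figure D1:**
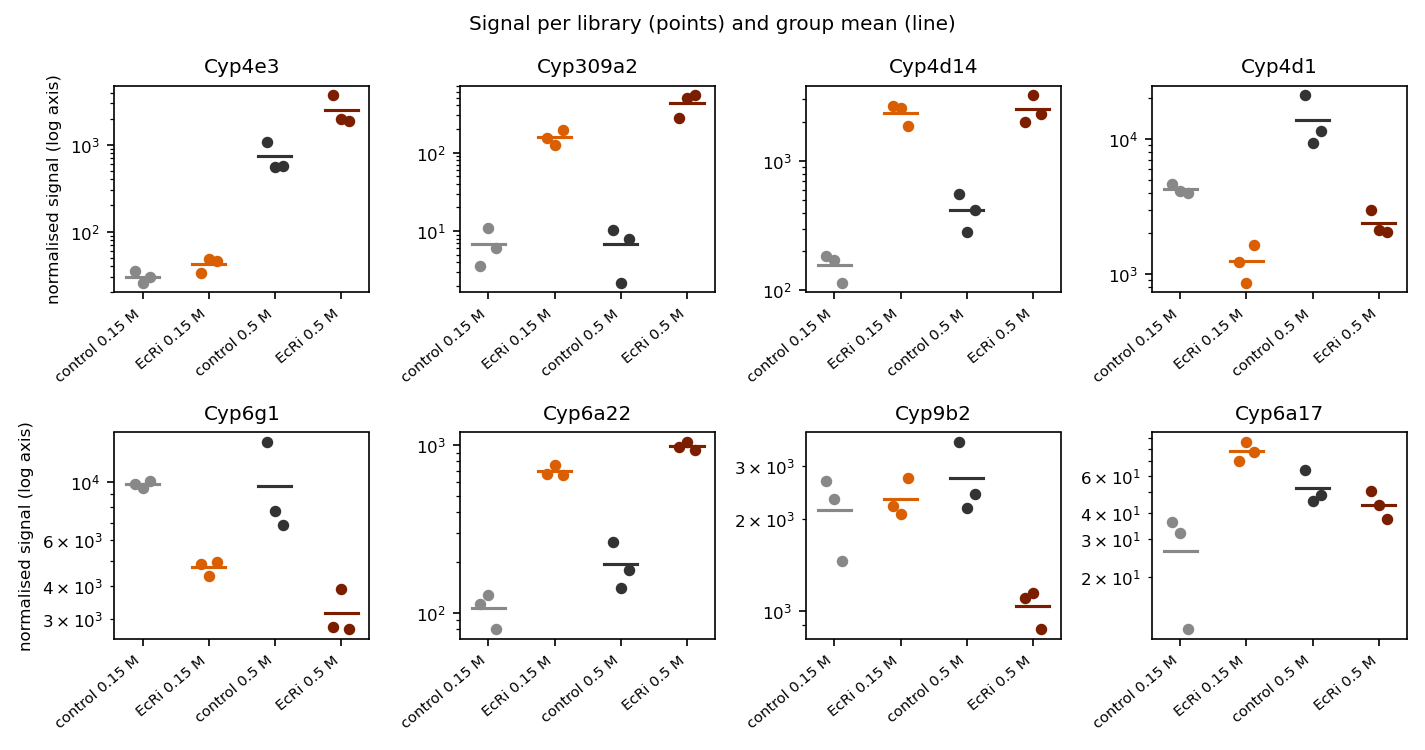
Normalised signal (log axis, one panel per gene) of 8 P450 genes in each library, as points, with the group mean as a line, for the 4 groups of 3 libraries. Cyp4e3 separates by diet, Cyp309a2, Cyp6a22 and Cyp4d14 by genotype, and Cyp9b2 is low on 0.5 M sucrose with the EcR RNAi label (870 to 1144).

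On 0.15 M sucrose, 16 P450 genes were higher and 5 lower in libraries labelled EcR RNAi than in controls. These 21 are 29.2% of the family, against 11.2% of all genes called in this comparison, 6.19% higher and 5.01% lower. The family's median log2 difference was 0.49, beside 0.04 over all genes. The 3 labelled libraries lay above all 3 controls in 27 P450 genes and below them in 5, against 15.5% and 12.5% of all genes. A gene was called at a Benjamini-Hochberg adjusted p under 0.05 over all 10047 genes in limma. In the CYP3 clan 11 of 36 rose and 4 fell, in the CYP4 clan 4 of 25 rose and 1 fell, and in the mitochondrial clan 1 of 9 rose. Of the 2 CYP2 members, Cyp303a1 and Cyp304a1, none was called in any of the 5 comparisons, and both gave an unadjusted p above 0.05 throughout. Within the CYP3 clan the Cyp6a subfamily held 7 of the rises and 1 of the falls among its 12 members.

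The CYP4 gene Cyp4d14 had a signal of 185, 173 and 114 in controls on 0.15 M and of 2692, 2582 and 1859 with the label. The difference was 3.92 ± 0.26 (log2, SE; limma adjusted p = 2.58e-07), and the lowest labelled library was far above the highest control. By signal per kb it went from rank 25 to rank 4. Cyp4d8 of the same subfamily went from 177, 177 and 100.2 to 922, 1075 and 800.2, a difference of 2.65 ± 0.28 (limma adjusted p = 1.94e-05). Cyp4p1 and Cyp4p3 rose by 1.54 ± 0.20 and 1.86 ± 0.38 (adjusted p = 3.54e-05 and 0.00351). So the 4 called rises of the CYP4 clan on this diet lay in the Cyp4d and Cyp4p subfamilies. The labelled libraries lay above all controls in 9 CYP4 genes. Among these was Cyp4ac1, not called at 0.83 ± 0.26 (limma adjusted p = 0.0532). Cyp4d2 and Cyp4d20 were not called. Cyp4d1, in contrast, fell. Its signal was 4669.6, 4150.5 and 3980.4 in controls and 1219.5, 863 and 1656 with the label, a difference of -1.82 ± 0.28 (limma adjusted p = 0.000368) with no overlap.

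Among CYP3 genes, Cyp6a22 rose from 112, 127 and 79.7 in controls to 667, 759.6 and 661 with the label, by 2.72 ± 0.21 (log2, SE; limma adjusted p = 2.58e-07). Cyp6a20, linked to male aggression in adult flies, rose from 5.36, 9.81 and 2.07 to 32.1, 32.0 and 20.1, by 2.26 ± 0.46 (adjusted p = 0.003), and the groups did not overlap at these low signals. Cyp6a17, known for a part in temperature preference, rose by 1.67 ± 0.33, Cyp6t1 by 1.38 ± 0.26, Cyp6a14 by 1.37 ± 0.39, Cyp6a13 by 1.3 ± 0.18 and Cyp6a9 by 1.24 ± 0.24 (adjusted p from 9.65e-05 to 0.0328). Cyp6a23 rose by 1.1 ± 0.29, Cyp28d2 by 1.1 ± 0.32, Cyp6w1 by 0.88 ± 0.24 and, in the mitochondrial clan, Cyp12b2 by 1.04 ± 0.30 (limma adjusted p from 0.0228 to 0.0345).

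Falls in the CYP3 clan on 0.15 M sucrose included the abundant Cyp6g1. It had a signal of 9852, 9455 and 10079 in controls and of 4848, 4366 and 4967 with the label, a difference of -1.05 ± 0.24 (log2, SE; limma adjusted p = 0.00667). Each labelled library lay well under the lowest control. Cyp6a21 fell from 141, 89.1 and 137 to 62.0, 36.5 and 51.2, by -1.28 ± 0.30 on the log2 scale (adjusted p = 0.00831). Cyp6v1 fell from 379, 368 and 347 to 186, 201 and 215, by -0.86 ± 0.15 (adjusted p = 0.000713). Cyp6d2, linked to resistance to the drug camptothecin, fell by -0.80 ± 0.22 (adjusted p = 0.0247). Without EcR RNAi 0.15 M replicate 2, Cyp6a21 stood at -1.08 (adjusted p = 0.0513). The calls of Cyp6a14, Cyp6a23, Cyp6d2, Cyp6w1, Cyp28d2 and Cyp12b2 were also lost when some library was left out, with Cyp6w1 at 0.57 without control 0.15 M replicate 3, and 14 of the 21 calls held whichever library was left out.

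Markers of another tissue moved with the same comparison. Beside the list counts below, 5.01% of all genes were called lower and 6.19% higher on 0.15 M sucrose. On 0.5 M these shares were 8.11% and 10.9%. On 0.15 M sucrose, 7 of 8 salivary gland genes measured were lower with the label, with a median of -3.39 on the log2 scale, and 4 of 8 on 0.5 M. Their summed signal was 20207 to 23830 in controls and 1338 to 3859 in labelled libraries on 0.15 M, and 7381 to 31410 against 2098 to 7177 on 0.5 M. None of the 8 had a mean signal under 10. Their part in the P450 differences was not tested. Of 6 oenocyte and 6 Malpighian tubule genes, limma called 0 between genotypes on 0.15 M, with 1 and 2 at an unadjusted p under 0.05. On 0.5 M, 1 oenocyte gene was higher and 3 lower, and 2 tubule genes were lower. Of 13 midgut genes, 1 was lower on 0.15 M and 4 on 0.5 M. The hemocyte list of 9 had 1 gene higher on each diet. The nervous system list of 6 had 0 called by limma on either diet, with 2 on 0.15 M and 0 on 0.5 M at an unadjusted p under 0.05. Of 11 muscle genes, 1 was lower on 0.15 M and 5 had an unadjusted p under 0.05, with a median of -0.99 on the log2 scale and summed signals of 19257 to 41784 in controls against 7957 to 26525 with the label. On 0.5 M limma called 0 of the 11, with 0 at an unadjusted p under 0.05. Of the 8 fat body markers, 0 were called on 0.15 M (1 at an unadjusted p under 0.05), and Lsp1alpha and Fbp1 were lower on 0.5 M. Their part in these differences was not tested either.

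**Figure D2:**
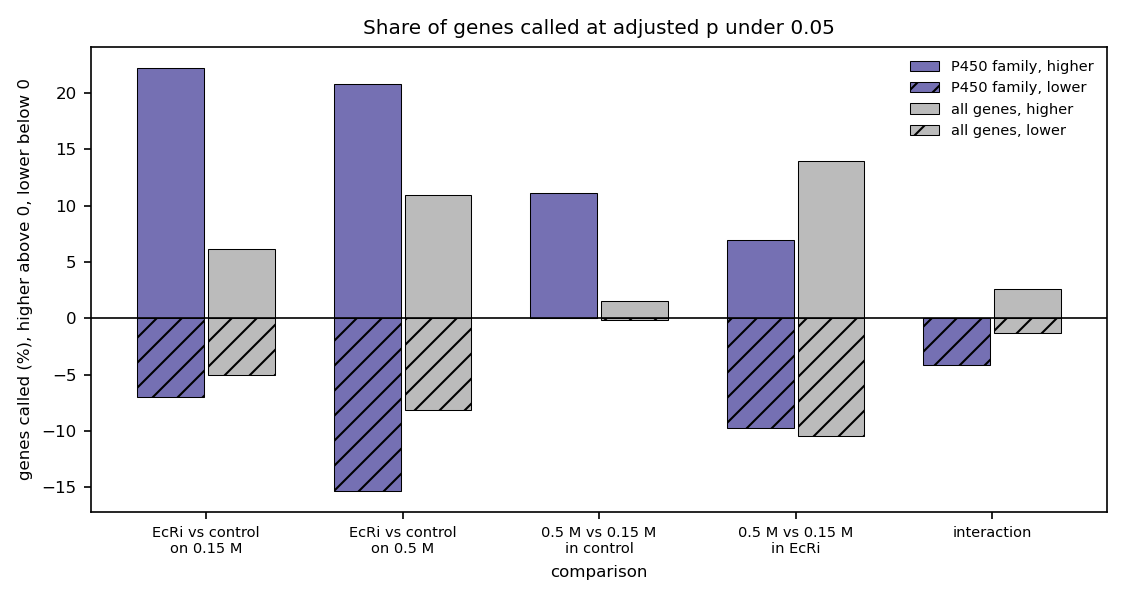
Percent of genes called higher (above 0) and lower (below 0, hatched) among the 72 P450 genes and among all 10047 genes, in each of the 5 comparisons. The family's bars are taller than those of all genes for higher calls in both genotype comparisons and in the diet comparison of controls. For lower calls they are also taller in both genotype comparisons, while the diet comparison of controls has no lower P450 call, and both bars are shorter in the diet comparison of libraries labelled EcR RNAi.

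On 0.5 M sucrose, 15 P450 genes were higher and 11 lower with the EcR RNAi label. These 26 are 36.1% of the family, against 19.1% of all genes, 10.9% higher and 8.11% lower. The family's median log2 difference was 0.12, beside -0.00 over all genes. In the CYP3 clan 7 rose and 7 fell, in the CYP4 clan 6 rose and 4 fell, and in the mitochondrial clan 2 rose. The groups lay apart in 19 P450 genes as higher and in 13 as lower, against 19.5% and 16.1% of all genes. Under upper quartile scaling 14 P450 genes were higher and 14 lower, and the higher share of calls over all genes went from 57.4% to 46.7%.

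Called higher on both diets were 11 genes, namely Cyp309a2, Cyp4d14, Cyp4d8, Cyp4p1, Cyp4p3, Cyp6a22, Cyp6a20, Cyp6a13, Cyp6a14, Cyp6a9 and Cyp12b2, against 4.15% of all genes called higher on both. Cyp4d14 on 0.5 M had a signal of 553, 282 and 419.6 in controls and of 2022, 3228 and 2333 with the label, a difference of 2.62 ± 0.26 (log2, SE; limma adjusted p = 6.47e-06). Cyp6a22 had 264, 139.6 and 180.1 in controls and 969, 1044 and 938 with the label, a difference of 2.38 ± 0.21 (adjusted p = 6.66e-07). Cyp6a20 had 1.75, 2.45 and 2.66 in controls and 20.2, 29.1 and 12.9 with the label, a difference of 2.66 ± 0.46 (adjusted p = 0.000534). In these 3 genes the groups lay apart on both diets. Cyp12b2, of the mitochondrial clan, rose by 1.04 ± 0.30 on 0.15 M and 0.99 ± 0.30 on 0.5 M (limma adjusted p = 0.0345 and 0.0296), and these calls were lost in 8 and 3 of 22 alternative fits. The calls of Cyp6a14 were lost in 7 of 22 on 0.15 M and in 3 on 0.5 M.

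Called lower on both diets were 5 genes, namely Cyp4d1, Cyp6g1, Cyp6a21, Cyp6d2 and Cyp6v1, against 2.64% of all genes called lower on both. Cyp4d1 on 0.5 M had a signal of 21026, 9313 and 11369 in controls and of 2996, 2135 and 2064 with the label. That is a difference of -2.47 ± 0.28 (log2, SE; limma adjusted p = 1.62e-05), and on both diets the groups lay apart. Cyp6g1 had 14254, 7741 and 6872 in controls and 2799.6, 3913 and 2733 with the label, a difference of -1.55 ± 0.24 (adjusted p = 0.000177). Cyp6a21 had 181, 112 and 129.8 against 21.2, 47.4 and 26.3, a difference of -2.17 ± 0.30 (adjusted p = 6.92e-05). In each of these 3 genes control replicate 1, the library that stood apart, was the highest, and every labelled library lay below the other controls too. Cyp6d2 had 502, 249 and 290.4 in controls and 101, 136 and 96.8 with the label (difference -1.58 ± 0.22, limma adjusted p = 7.84e-05).

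Called on 0.5 M and not on 0.15 M were 4 rises, of which Cyp4e3 is given above, and 6 falls. Cyp4aa1 was the most variable of the rises, with a signal of 6.25, 3.96 and 7.12 in controls and of 133, 8.10 and 212 with the label. Its difference of 3.27 ± 1.03 (log2, SE; limma adjusted p = 0.048) rests on 2 of 3 labelled libraries, and the call was lost in 16 of 22 alternative fits. Cyp6a2, a gene inducible by xenobiotics and linked to DDT resistance, rose by 1.84 ± 0.37 on 0.5 M (adjusted p = 0.00201), and its difference on 0.15 M was 1.07 ± 0.37 (adjusted p = 0.084). Cyp12e1 rose by 0.63 ± 0.21 (adjusted p = 0.0407), beside an uncalled 0.57 on 0.15 M, and its call on 0.5 M was lost in 9 of 22 alternative fits, with an adjusted p of up to 0.158. The falls were Cyp9b2 at -1.37 ± 0.23, Cyp6a18 at -1.26 ± 0.31, Cyp4e2 at -0.95 ± 0.24, Cyp28a5 at -0.94 ± 0.30, Cyp4ac2 at -0.89 ± 0.29 and Cyp4s3 at -0.69 ± 0.21 (adjusted p from 0.000466 to 0.0407). Without EcR RNAi 0.5 M replicate 3, Cyp4e2 stood at -0.74 (adjusted p = 0.0568). The calls of Cyp28a5, Cyp4ac2 and Cyp4s3 were lost in 9, 10 and 7 of 22 alternative fits, with an adjusted p of up to 0.132, 0.152 and 0.122, and without control 0.5 M replicate 1 they stood at -0.59, -0.64 and -0.45. In all, 18 of the 26 calls on this diet held whichever library was left out.

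**Figure D3:**
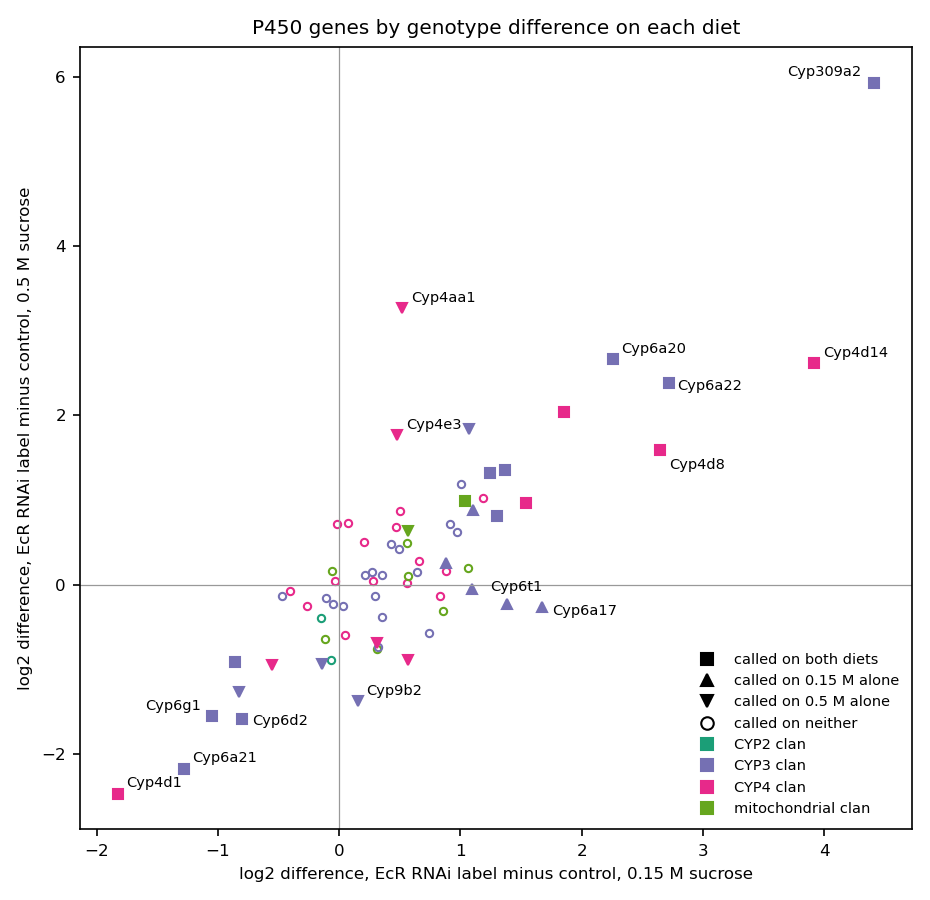
Log2 difference between libraries labelled EcR RNAi and controls on 0.15 M sucrose (x axis) and on 0.5 M sucrose (y axis) for the 72 P450 genes, coloured by clan, with symbols for the diets on which a gene was called. The 11 genes higher on both diets fill the upper right, the 5 lower on both the lower left, and 0 were called in opposite directions.

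The diet in control larvae gave 8 P450 genes higher and 0 lower on 0.5 M than on 0.15 M sucrose. That is 11.1% of the family, against 1.72% of all genes, 1.55% higher and 0.169% lower. At an unadjusted p under 0.05, limma gave 21 P450 genes in either direction. The groups lay apart in 16 as higher and in 4 as lower, against 10.2% and 7.76% of all genes. Of the 8, 6 are of the CYP4 clan, namely Cyp4e3, Cyp4d1, Cyp4d14, Cyp4ad1, Cyp4d8 and Cyp4s3, and 2 of the CYP3 clan, Cyp9f2 and Cyp6w1. Cyp4d1 rose from the control values on 0.15 M given above to 21026, 9313 and 11369, by 1.62 ± 0.28 (log2, SE; limma adjusted p = 0.00779). Cyp4d14 rose by 1.38 ± 0.26 (adjusted p = 0.0146). Cyp4ad1 rose from 42.4, 40.1 and 52.1 to 121, 109 and 90.8, by 1.23 ± 0.25 (adjusted p = 0.0166), and its groups lay apart. Cyp4d8 rose by 1.19 ± 0.28, Cyp6w1, an enzyme linked to DDT metabolism, by 1.07 ± 0.24, Cyp4s3 by 1.0 ± 0.21 and Cyp9f2 by 0.78 ± 0.17 (adjusted p from 0.0239 to 0.0486).

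These diet calls in controls depend on single libraries and on the choice of fit. The call of Cyp4d8 was lost in 15 of 22 alternative fits, with a limma adjusted p of up to 0.209. Cyp6w1 and Cyp4s3 were lost in 7 each, Cyp4d14 and Cyp9f2 in 5 each, Cyp4ad1 in 4 and Cyp4d1 in 1. Of the 8 calls, 1 held in every alternative other than leaving out a library. Without control 0.5 M replicate 1, the library that stood apart, 3 were called, which were Cyp4e3 at 4.19, Cyp4d1 at 1.27 and Cyp28d1 at -0.94 (limma adjusted p = 3.23e-06, 0.0203 and 0.0333). Without control 0.15 M replicate 2 there were 5, without control 0.15 M replicate 3 there were 3, and without control 0.5 M replicate 3 there were 4. Cyp4e3 and Cyp4d1 kept their calls whichever library was left out. Quantile normalisation gave 8 higher and 1 lower, with Cyp4d8 not among them.

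In libraries labelled EcR RNAi the diet gave 5 P450 genes higher and 7 lower on 0.5 M sucrose. These 12 are 16.7% of the family, against 24.4% of all genes, 14.0% higher and 10.4% lower, and the median log2 difference was -0.02 in the family and over all genes. The groups lay apart in 8 P450 genes as higher and in 17 as lower, against 24.5% and 20.2% of all genes. The split between directions changed with the scaling, to 3 higher and 19 lower under upper quartile scaling and to 5 and 13 under quantile normalisation, and the higher share of calls over all genes went from 57.4% to 30.1% under the former. Upper quartile scaling moved the median of all genes by -0.23 on the log2 scale. In the CYP4 clan 4 rose and 2 fell, in the CYP3 clan 1 rose and 3 fell, and in the mitochondrial clan 2 fell.

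The rises in labelled libraries, beside Cyp4e3 and Cyp309a2, were Cyp4d1 by 0.97 ± 0.28 (log2, SE; limma adjusted p = 0.0224), Cyp313b1 by 0.86 ± 0.27 (adjusted p = 0.0302) and Cyp4aa1 by 3.56 ± 1.03 (adjusted p = 0.0286). The Cyp4aa1 groups overlapped, with 10.9, 5.62 and 1.01 on 0.15 M and 133, 8.10 and 212 on 0.5 M. Each of these 3 calls was lost in some alternative fits, 3 for Cyp4d1, 5 for Cyp313b1 and 7 for Cyp4aa1.

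In all 7 falls the groups lay apart, and the 4 largest are given first. Cyp49a1, of the mitochondrial clan, had 59.6, 31.8 and 35.1 on 0.15 M and 5.07, 16.2 and 16.7 on 0.5 M, a difference of -1.76 ± 0.40 (log2, SE; limma adjusted p = 0.00542). Cyp9h1 had 309.01, 308.9 and 281 against 97.0, 144 and 81.7, a difference of -1.51 ± 0.25 (adjusted p = 0.000847). Cyp4ac2 had 103, 106 and 76.3 against 34.3, 44.3 and 32.7, a difference of -1.33 ± 0.29 (adjusted p = 0.00399). Cyp9b2 was the most abundant of the 4 by signal per kb on 0.15 M, where it held rank 5. Its signal went from 2208, 2079 and 2729 to 1099.8, 1144 and 869.9, a difference of -1.17 ± 0.23 (adjusted p = 0.00239). Cyp12a4, whose overexpression gives lufenuron resistance, fell by -0.92 ± 0.24, Cyp28d1, linked to nicotine metabolism, by -0.81 ± 0.25 and Cyp4ac1 by -0.76 ± 0.26 (adjusted p from 0.0121 to 0.0435). The calls of Cyp28d1 and Cyp4ac1 were lost in 5 and 7 of 22 alternative fits, with an adjusted p of up to 0.108 and 0.145. Without EcR RNAi 0.15 M replicate 2 and without EcR RNAi 0.5 M replicate 1, 7 P450 genes were called in this comparison, and 6 of the 12 calls held whichever library was left out. The muscle list moved with this comparison, with 7 of 11 genes higher on 0.5 M and summed signals of 7957 to 26525 against 35424 to 74178. That count ran from 1 to 9 over the alternative fits, with 1 under quantile normalisation. Of the other lists, hemocyte genes gave 1 higher and 3 lower of 9, midgut 1 and 2 of 13, and oenocyte 1 and 1 of 6. Salivary gland genes gave 2 higher of 8, tubule 1 lower of 6 and fat body 1 lower of 8. Of all genes 14.0% were called higher and 10.4% lower. With the diet in controls, 1 salivary gland and 1 hemocyte gene were higher and 1 tubule gene lower, beside 1.55% and 0.169% of all genes. The part of these lists was not tested.

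**Figure D4:**
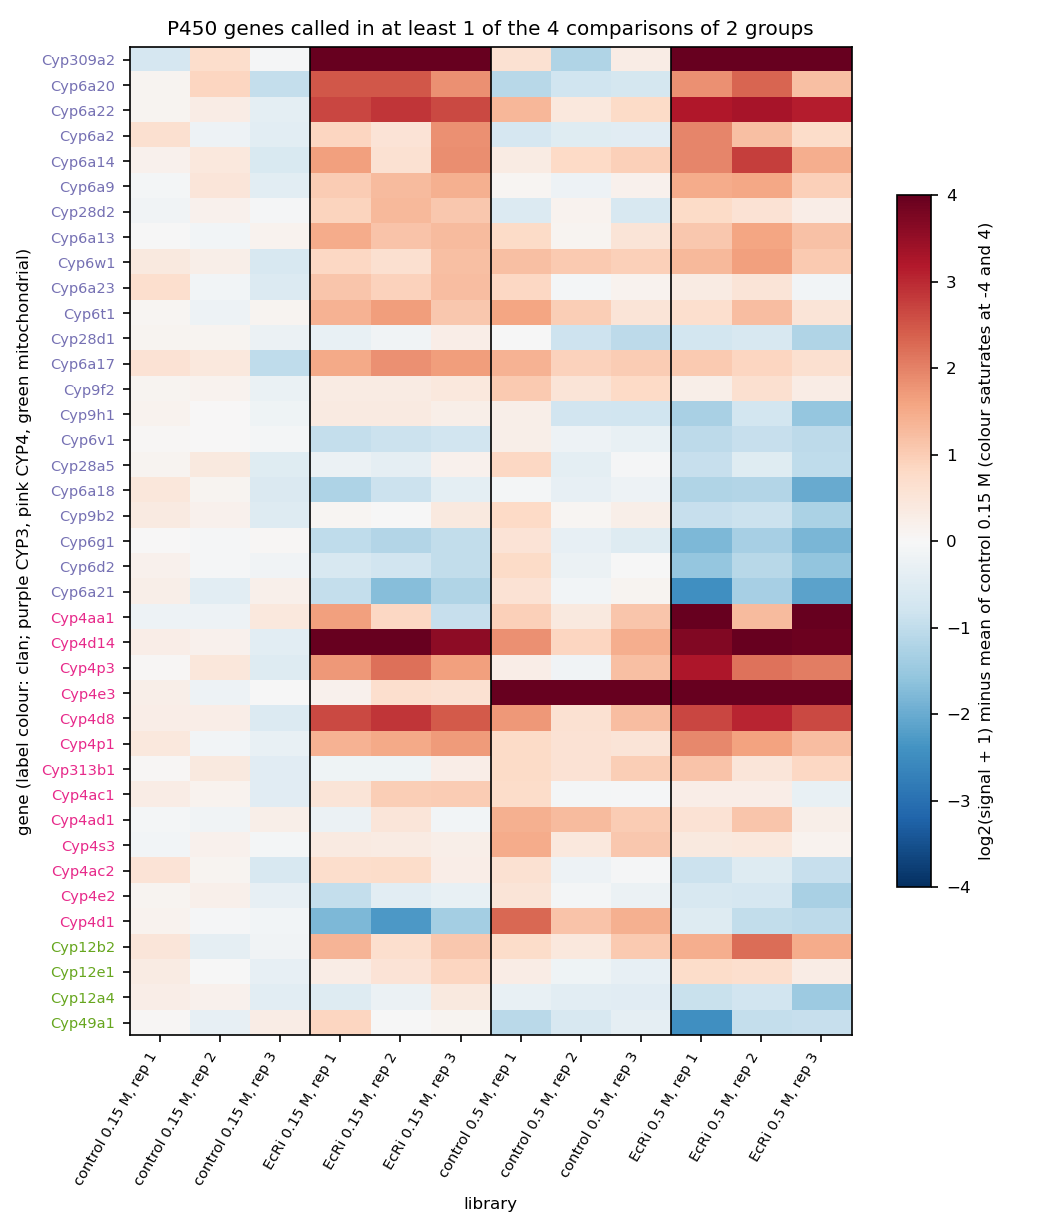
Difference of log2(signal + 1) from the mean of the controls on 0.15 M sucrose (colour, saturating at -4 and 4) in each of the 12 libraries, for the 39 P450 genes called in at least 1 of the 4 comparisons of 2 groups, ordered by clan. Cyp309a2 and Cyp4d14 are dark red in the libraries labelled EcR RNAi on both diets, and Cyp4e3 in all 6 libraries on 0.5 M sucrose.

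The interaction, which is the diet difference in labelled libraries minus that in controls, was called for 3 P450 genes, all of the CYP3 clan and all negative. That is 4.17% of the family, near the 3.92% of all genes, with 2.59% positive and 1.33% negative, and 16 P450 genes had an unadjusted p under 0.05. Positive calls were 65.99% of the calls over all genes, and 39.9% under upper quartile scaling, which moved the median of all genes by -0.16 on the log2 scale. The family's median was -0.31, beside -0.05 over all genes. Cyp9b2 had control signals of 2672, 2323 and 1455 on 0.15 M and of 3589.5, 2181 and 2426 on 0.5 M. With the fall in labelled libraries given above, its interaction was -1.53 ± 0.33 (log2, SE; limma adjusted p = 0.0183), lost in 1 of 21 alternative fits. Cyp6t1 had 58.8, 47.9 and 60.3 in controls and 146, 179 and 118 with the label on 0.15 M, and 168, 111 and 80.04 against 87.9, 132 and 80.2 on 0.5 M. The genotypes lay apart on the low-sugar diet and overlapped on the high-sugar diet, and the interaction was -1.61 ± 0.36 (adjusted p = 0.0239). Cyp6a17 had 36.1, 32.1 and 11.3 in controls and 70.2, 86.4 and 77.3 with the label on 0.15 M, and 63.7, 45.7 and 48.5 against 50.5, 43.4 and 37.3 on 0.5 M. Its interaction was -1.93 ± 0.47 (adjusted p = 0.0323). The calls of Cyp6t1 and Cyp6a17 were lost in 6 and 9 of 21 alternative fits. The count of P450 calls was 5 without control 0.15 M replicate 1, 8 without control 0.5 M replicate 2, and 1 without EcR RNAi 0.15 M replicate 1 or 2 or without EcR RNAi 0.5 M replicate 1 or 3.

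Many P450 genes lie next to each other on the chromosome. By gene order in the reference annotation, 38 of the 72 measured members adjoin another P450 gene, in 15 runs. The longest run, in order, is Cyp6a22, Cyp6a17, Cyp6a23, Cyp6a19 (not analysed here), Cyp6a9, Cyp6a20, Cyp6a21, Cyp6a8 and Cyp317a1. On 0.15 M sucrose the first 5 measured genes of this run were higher with the EcR RNAi label, Cyp6a21 was lower, and Cyp6a8 and Cyp317a1 were not called, at 0.92 ± 0.51 and 0.74 ± 0.47 (log2, SE). On 0.5 M Cyp6a22, Cyp6a9 and Cyp6a20 were higher and Cyp6a21 lower, while Cyp6a17 and Cyp6a23 stood at -0.26 ± 0.33 and -0.05 ± 0.29. Adjacent genes thus differed in direction within the run. In the run of Cyp6g1, Cyp6g2 and Cyp6t3, Cyp6g1 alone was called. Cyp6a14 and Cyp6a13, and Cyp4p1 and Cyp4p3, were called higher in both members on both diets, with the losses of Cyp6a14 given above. Cyp12d1-p and Cyp12d1-d, a pair of near-identical copies known to be inducible by xenobiotics, may split reads between them, and both values are uncertain. They were not called, with genotype differences on 0.15 M of 0.57 ± 0.30 and 1.06 ± 0.36. How the authors counted reads is not given here, so reads of other close copies, such as Cyp6a17 and Cyp6a23, may also be split between them.

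Genes taken as partners of P450 enzymes were counted in lists. Of 7 measured genes listed as electron transfer partners, 1 was called higher in each of the 4 comparisons of 2 groups. Over all genes, 6.19% and 10.9% were called higher between genotypes on 0.15 M and 0.5 M. Between diets these shares were 1.55% in controls and 14.0% in labelled libraries. Cpr, the reductase that passes electrons to all microsomal P450s, rose with the diet in controls from 397 ± 11.9 to 602 ± 31.2 (SD, n = 3; log2 difference 0.60 ± 0.14, limma adjusted p = 0.0441) and in labelled libraries from 486 ± 50.3 to 755 ± 129 (0.62 ± 0.14, adjusted p = 0.00572). The call in controls was lost in 14 of 22 alternative fits, and that in labelled libraries in 1. Cyt-b5-r rose with the label, by 1.09 ± 0.30 on 0.15 M and 1.14 ± 0.30 on 0.5 M (adjusted p = 0.0291 and 0.0151), and these calls were lost in 5 and 3 of 22. No other gene of this list was called between genotypes. The symbol Cyt-b5-r does not establish that its product passes electrons to P450 enzymes, and this was not tested. The mitochondrial partner dare, an adrenodoxin reductase, was not called, with mean signals of 96.3 to 129.5.

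Of 9 genes of haem synthesis and breakdown, Ho, the haem oxygenase that breaks haem down, fell on 0.15 M with the label by -0.71 ± 0.18 (log2, SE; limma adjusted p = 0.0158). This call was lost in 3 of 22 alternative fits, and 5.01% of all genes were called lower there. Alas, the first enzyme of haem synthesis, rose with the label on 0.5 M from 357 ± 89.4 to 647 ± 18.5 (0.88 ± 0.17, adjusted p = 0.00111) and with the diet in labelled libraries by 0.82 ± 0.17. In that last comparison 3 of the 9 rose, Coprox among them by 0.50 ± 0.16, and CG1885 fell by -0.85 ± 0.21. Over all genes 14.0% were called higher there and 10.4% lower. The Coprox call was lost in 7 of 22 alternative fits, with a limma adjusted p of up to 0.164. With the diet in controls limma called 0 of the 9, with 1 at an unadjusted p under 0.05. The comparisons of labelled libraries on 0.5 M share those libraries.

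Of 12 regulators listed for xenobiotic and hormone response, tai, a coactivator, fell with the label on 0.15 M by -0.85 ± 0.16 (log2, SE; limma adjusted p = 0.00177). On 0.5 M sucrose 5 rose with the label, which were svp, gce, Hnf4, cnc and Met, by 0.75, 0.67, 0.61, 0.55 and 0.54, where 10.9% of all genes were called higher. The calls of cnc and Met were lost in 4 and 3 of 22 alternative fits, those of svp, gce and Hnf4 in 0. The list's count of calls ran from 3 to 7. In labelled libraries 6 rose with the diet, where 14.0% of all genes were called higher, and this count was 2 under upper quartile scaling, under quantile normalisation, and without EcR RNAi 0.15 M replicate 2 or EcR RNAi 0.5 M replicate 1. Among the 6 were Hr96, the fly's xenobiotic-sensing nuclear receptor, at 0.51 ± 0.15 (adjusted p = 0.0205), and cnc, the fly relative of Nrf2, at 0.62 ± 0.16 (adjusted p = 0.0125). The calls of Hr96 and cnc with the diet were lost in 5 and 4 of 22 alternative fits. In controls limma called 0 of the 12 with the diet, with 1 at an unadjusted p under 0.05. The nuclear receptor svp also had an interaction of 0.93 ± 0.22 (adjusted p = 0.0304), lost in 7 of 21 alternative fits.

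P450 genes of ecdysone metabolism that the rule leaves out were counted apart, 4 with other symbols and Cyp18a1. Of these 5, sad, an enzyme of late ecdysone synthesis, rose with the label on both diets, from 219 ± 76.9 to 1176 ± 253 on 0.15 M and from 252 ± 60.8 to 7287 ± 741 on 0.5 M (SD, n = 3; limma adjusted p = 3.79e-06 and 2.46e-09). On 0.5 M spok, phm and shd fell with the label, by -3.18 ± 0.44, -1.52 ± 0.31 and -1.20 ± 0.20 on the log2 scale, and Cyp18a1, which inactivates ecdysone, rose by 1.88 ± 0.57 (adjusted p = 0.0317), a call lost in 7 of 22 alternative fits. Between genotypes, 6.19% of all genes were called higher on 0.15 M, and 10.9% higher and 8.11% lower on 0.5 M. The interaction was called positive for sad and negative for spok, phm and shd, and for shd this was lost in 11 of 21. It was positive for 2.59% and negative for 1.33% of all genes. With the diet in controls limma called 0 of the 5, with 1 at an unadjusted p under 0.05. In labelled libraries sad rose with the diet, and spok and phm fell, beside 14.0% of all genes called higher and 10.4% lower. Over 22 alternative fits these ran from 2.37 to 2.77, -4.69 to -3.24 and -2.9 to -2.43, and no call was lost.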

How the data were processed

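Fat body RNA was sequenced in 12 libraries, 3 for each of 4 groups. The table deposited by the authors covers 10047 genes, each with 1 normalised signal per library. Per the submitters' processing notes, the tools were edgeR, Cufflinks 1.1.0, Bowtie 0.12.7 and TopHat 1.3.2, whose roles are not stated. The normalisation, genome build and annotation are not given in the sources used here, and depth in reads is unknown. Here, log2(signal + 1) values were fitted with limma 3.58.1 in R 4.3.3, as 1 model of 4 groups over all 12 libraries with a trended, robust empirical Bayes step, and p-values were adjusted by Benjamini-Hochberg over all 10047 genes. Fold changes are on this scale, which understates changes of low genes. Genes needed a mean signal of at least 1, and all passed. The fit was also run on simulated whole counts with the same spread setting for all genes. These differ from the deposited signal, and no result here rests on that run.

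The P450 genes, the partner lists and the cell type marker lists were chosen with earlier results of these data known. Named genes were every P450 gene called (the rule took the 12 largest per direction and comparison, and the rest were added later), Cyp4e3, Cyp309a2, the most abundant member of each clan, and up to 3 called members per list. Per-library values are those of the 4 largest rises and falls. Other genes were named after their values were seen. Clans follow the family number. Neighbours follow the RefSeq gene order and exon lengths the Ensembl BDGP6 annotation. No coordinates are printed, since the build of the values is not known. The alternatives were another pseudocount, filter, scaling, weighting, variance model, set of libraries and replicate block, and leaving out each library.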

Additional observations from a re-analysis of the deposited data

Results flagged for a closer look

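The diet difference of 3 P450 genes differed between genotypes by a test of that difference itself, the interaction term of limma over all 12 libraries. It was -1.93 on the log2 scale for Cyp6a17, -1.61 for Cyp6t1 and -1.53 for Cyp9b2. The 3 are 4.17% of the family, near the 3.92% of all genes called. The calls were lost in 9, 6 and 1 of 21 alternative fits, and without trend and robustness limma called 0 of the 3. For Cyp6a17 and Cyp6t1 the genotypes lay apart on 0.15 M sucrose and not on 0.5 M, and for Cyp9b2 they lay apart on 0.5 M and not on 0.15 M. The cause of these differences was not tested.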

How the results depend on the processing

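Counts of calls in the family, clans and lists, and the differences of the genes named with one, were refitted in 22 ways (21 for the interaction), of which those for list genes and for P450 genes not called were chosen after seeing the data. The counts of P450 calls between genotypes stayed within 1.5 times. The diet count in controls, 8, was 20 with library weights and 2 both without trend and robustness and with only the groups compared, and ran from 3 to 10 when each library was left out. The diet count in labelled libraries, 12, was 22 under upper quartile scaling and 7 to 17 without single libraries. The interaction count, 3, was 7 under upper quartile scaling, 6 under quantile normalisation, 9 with library weights, 0 without trend and robustness, and 1 to 8 without single libraries. With the replicate number as a block, the counts were 21 and 25 between genotypes, 9 and 13 between diets, and 4 for the interaction. The labels give no reason to pair equal numbers, and of 18 same-number pairs 2 had a correlation of deviations over 0.1. All reversals were of values not called. Cyp12c1, between diets in labelled libraries, turned to -0.04 under upper quartile scaling and -0.1 under quantile normalisation, and between genotypes on 0.15 M to 0.01 with library weights. Cyp309a2 turned to 0.02 between diets in controls under quantile normalisation. Without single libraries Cyp12c1 ran from -0.26 to 0.14 (diet, controls), -0.18 to 0.0 (genotype, 0.15 M) and -0.03 to 0.37 (genotype, 0.5 M), and Cyp304a1 from -1.07 to 0.12 (diet, controls) and -0.31 to 0.22 (genotype, 0.15 M). Between diets in controls Cyp309a2 ran from -0.45 to 0.46, Cyp6g1 from -0.42 to 0.1 and Cyp4e2 from -0.15 to 0.22. Cyp4e2 there was also -0.02 under upper quartile scaling, -0.13 under quantile normalisation and -0.25 with library weights. Between genotypes on 0.5 M, Cyp309a1 was 0.2 and Cyp6a23 0.15 with library weights, and without single libraries they ran from -0.34 to 0.14 and from -0.23 to 0.22, and EcR from -0.24 to 0.09. Cyp4e1 between diets in labelled libraries was 0.45 under quantile normalisation and ran from -0.73 to 0.18. Salivary gland calls ran from 4 to 7 on 0.15 M and from 2 to 7 on 0.5 M. The cause of these changes was not tested. Dropping the filter changed no value, since all genes pass it, and the library weights stopped before convergence. With no depth given, counting error of low genes is not known.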
